A study of Mus musculus with 7 samples.

Results

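Endocardial endothelial cells (ECs) of the developing mouse heart were described in 2 strains, CD1 and C57BL/6. The members were the cells that carried the label endocardial EC in the final annotation column of each strain's deposited cell table, after cells marked for exclusion had been left out. They numbered 6322 of 52802 cells, of which 2469 of 27445 were CD1 cells and 3853 of 25357 were C57BL/6 cells. The remaining endothelial cells were 2631 vascular ECs, 1180 in CD1 and 1451 in C57BL/6.

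The cells came from hearts of unmanipulated mice, which were cut into 4 zones, the atria (LA on the left, RA on the right) and the ventricles (LV and RV), pooled over several hearts of a stage, dissociated, tagged with a barcode for their stage and zone (MULTI-seq), and sequenced together as single cells. CD1 hearts were taken at 18 stages from E9.5 to P9 in 3 experiments, named in the labels E9.5_P3, E18_P1 and P2_P9. C57BL/6 hearts were taken at 17 stages from E10.5 to P9 in 2 experiments, E10.5_P4 and P5_P9. According to the study, P2_P9 and E10.5_P4 were sequenced on the NovaSeq platform and the remaining experiments on HiSeq X. The stages of each strain thus cross a change of platform. The atrioventricular canal and the ventricular septum were collected with the LV, and postnatal ventricles passed an additional strainer during dissociation. Each combination of stage and zone is 1 sample of pooled hearts, apart from CD1 P1 and P2, whose samples combine the cells of 2 experiments, so p-values over stages measure the spread between stages and not between animals, and a share is a share of the cells that were recovered, assigned to a zone and kept.

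The endocardium is the endothelial layer that lines the inside of the heart chambers and is in contact with the blood. Part of it undergoes endothelial-to-mesenchymal transition in the cushions that become the valves, part of it contributes to coronary vessels, and it signals to the underlying myocardium during trabeculation. The study named the endocardial clusters by Npr3, which encodes the natriuretic peptide clearance receptor, and Pecam1, which encodes an adhesion molecule of all ECs, and the vascular ECs by Fabp4, a fatty acid binding protein of coronary endothelium. The study also found Fabp4 in endocardial ECs of late embryonic and neonatal stages, and Npr3 in epicardial cells. The cell tables hold labels and quality measures per cell and no gene values, so the label could not be checked here against these markers.

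The CD1 table held 72 samples of 12 to 2091 cells, and 68 C57BL/6 samples held 9 to 5416 cells. Endocardial ECs per sample ranged from 0 to 202 in CD1 and from 1 to 764 in C57BL/6. Fewer than 10 endocardial ECs were found in 22 CD1 samples and 23 C57BL/6 samples, which did not enter the per-cell measures. One sample, the C57BL/6 RV of E13.5, contributed 764 cells, or 19.8% of the C57BL/6 endocardial ECs. A barcode seen in more than 1 library of the same strain was carried by 11 CD1 and 19 C57BL/6 endocardial ECs, and 54 endocardial ECs carried a barcode found in both strains. These were kept as separate cells. The smallest CD1 sample, the P5 RV, had 0 endocardial ECs of 12 cells, which allows a share of up to 25%.

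Endocardial ECs were concentrated in the atria. Of the CD1 endocardial ECs, 73.3% came from atrial samples, against 40.4% of all CD1 cells and 19.4% of the vascular ECs. In C57BL/6, atrial samples held 57.3% of the endocardial ECs, 46.3% of all cells and 23.5% of the vascular ECs. Pooled over stages, endocardial ECs were 17.0% of the cells of the CD1 LA (95% exact binomial interval 15.96 to 18.1%), 15.7% in the RA (14.8 to 16.7%), 4.02% in the LV (3.64 to 4.43%) and 4.06% in the RV (3.60 to 4.56%). The C57BL/6 shares were 17.7% in the LA, 19.6% in the RA, 10.4% in the LV and 13.0% in the RV. The intervals cover counting error only, since cells of 1 sample share their source.

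With each zone of a stage given equal weight, the CD1 atrial share was 16.7% ± 8.34 (SD, n = 18 stages) and the ventricular share 4.80% ± 1.90. The atrial share was higher in 17 of 18 stages, E11.5 being the exception, and the mean difference was 11.9 percentage points ± 8.29 (SD; sign-flip permutation test over stages, p = 4e-05, adjusted p = 0.00037 over 12 comparisons of zones). In C57BL/6 the atrial share was 17.3% ± 4.81 and the ventricular share 9.37% ± 4.76 (SD, n = 17 stages). The difference of 7.96 percentage points ± 7.86 was positive at 15 of 17 stages, all but E11.5 and E12.5 (permutation p = 0.0013, adjusted p = 0.0038). The plot of shares of all cells shows the atrial and ventricular samples side by side at each stage.

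**Figure D1:**
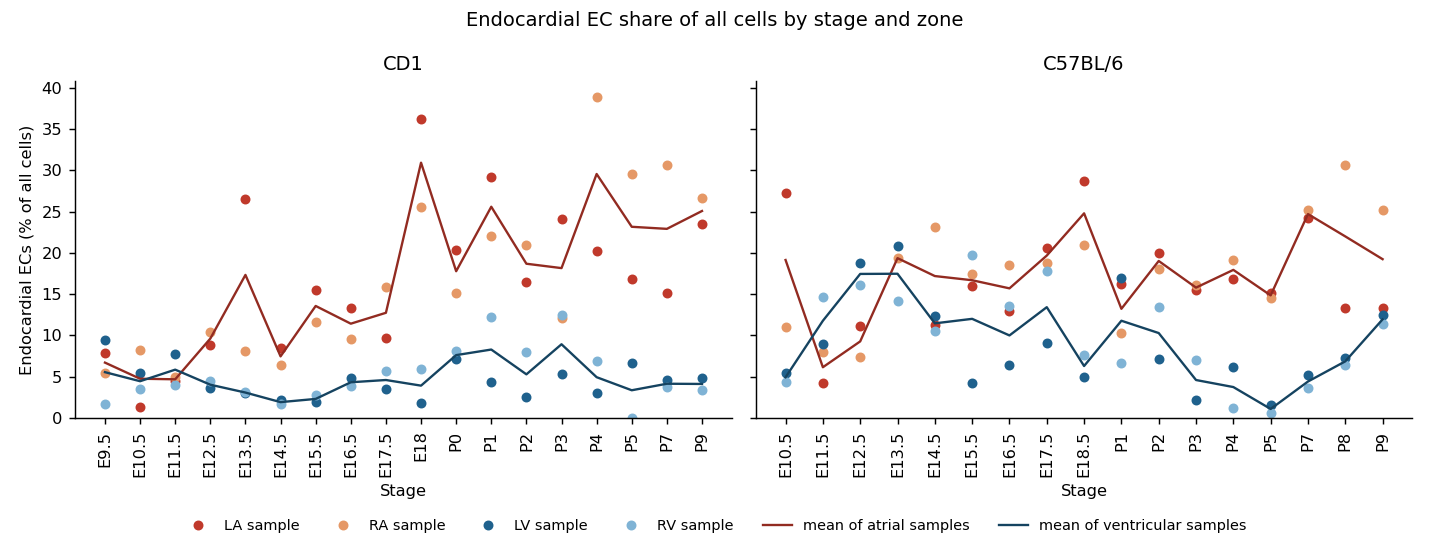
Endocardial ECs as a percentage of all cells (vertical axis) at each stage (horizontal axis) in CD1 and C57BL/6. Each point is 1 sample of a zone with at least 10 cells, and the lines join the means of the atrial and of the ventricular samples. In CD1 the atrial mean lies above the ventricular mean at 17 of 18 stages, and in C57BL/6 at 15 of 17.

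Within experiments the atrial share was higher by 6.97 percentage points in CD1 E9.5_P3 (12 of 13 stages) and by 6.06 in C57BL/6 E10.5_P4 (11 of 13 stages), with permutation p = 0.00098 and 0.017. Without P5_P9 the C57BL/6 call was lost (adjusted p = 0.051, permutation test). The difference was 19.3 percentage points over the 5 stages of CD1 P2_P9 and 14.1 over the 4 stages of C57BL/6 P5_P9, and it was positive at each of these stages. These designs cannot give a p below 0.062 and 0.12. The 2 stages of CD1 E18_P1 gave 31.1 percentage points.

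The difference between atria and ventricles varied with stage. In CD1 the atrial and ventricular shares were 6.69% and 5.53% at E9.5, 4.73% and 4.43% at E10.5, and 4.66% and 5.83% at E11.5. They were 17.3% and 3.06% at E13.5, 30.9% and 3.89% at E18, 29.6% and 4.92% at P4, and 25.1% and 4.10% at P9. The difference rose with stage in CD1 (Spearman's rho = 0.79, permutation p = 0.00018, adjusted p = 0.0011 over 6 relations; Pearson's r = 0.77, p = 0.00026; n = 18 stages). In C57BL/6 it was 14.2 percentage points at E10.5, -5.63 at E11.5, -8.18 at E12.5, 1.89 at E13.5, 1.45 at P1, 8.74 at P2, 20.3 at P7 and 7.30 at P9. Its relation with stage was rho = 0.57 (permutation p = 0.019, adjusted p = 0.028) and r = 0.59 (p = 0.013, n = 17 stages). This relation was chosen after the shares had been seen.

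The left and right sides did not differ beyond the spread between stages. The LA share exceeded the RA share at 9 of 18 CD1 stages and 7 of 16 C57BL/6 stages, with mean differences of -0.218 percentage points ± 9.66 and -1.10 ± 8.15 (SD; permutation adjusted p = 0.92 and 0.66). The LV share exceeded the RV share at 8 of 18 CD1 stages and 10 of 17 C57BL/6 stages, with mean differences of -0.524 ± 4.24 and -1.11 ± 6.32 (permutation adjusted p = 0.66 for both). The mean LA minus RA difference was 3.25 percentage points in CD1 E9.5_P3 and -11.8 in CD1 P2_P9 (exact permutation p = 0.062, the smallest 5 stages allow), where the RA share was the higher at all 5 stages.

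Across stages, the CD1 endocardial EC share of all cells rose. The mean over the 4 zones was 5.69% ± 0.974 (SD) over the 4 stages from E9.5 to E12.5, 9.45% ± 4.30 over the 6 stages from E13.5 to E18 and 14.2% ± 1.93 over the 8 postnatal stages. The relation with stage had rho = 0.81 (permutation p = 0.00012, adjusted p = 0.00048 over 4 relations) and r = 0.81 (p = 0.00014, n = 18 stages). With E9.5 and P9 left out, the ends of the series, r was 0.79 (permutation p = 0.00032). Within E9.5_P3 rho was 0.85 and r was 0.85 (permutation p = 0.00042 and 0.00024, n = 13 stages). The 5 stages of P2_P9 lay between 10.6% and 17.2% (rho = 0.40, exact permutation p = 0.52). Over the 7 stages of E18_P1 and P2_P9 together rho was -0.46 and r was -0.47 (exact permutation p = 0.30 for rho).

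The rise was called in the atria and not in the ventricles. In atrial samples rho was 0.83 and r was 0.81 (permutation p = 2e-05 and 6e-05, adjusted p = 0.00012 for rho over 12 relations), from 6.42% ± 2.32 (SD) at E9.5 to E12.5 to 22.6% ± 4.18 after birth. In ventricular samples rho was 0.086 and r was 0.19 (permutation p = 0.73 and 0.46), with shares between 1.89% at E14.5 and 8.91% at P3. The test of the difference between atria and ventricles over stages is given above.

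This rise depended on the denominator. Cardiomyocytes are part of all cells, and as a share of non-myocytes the mean over zones was 22.2% ± 6.39 (SD) at E9.5 to E12.5, 22.9% ± 3.88 at E13.5 to E18 and 20.7% ± 4.40 after birth, with rho = -0.36 (permutation p = 0.14, n = 18 stages). Of the non-myocytes of CD1 ventricles, endocardial ECs made up 31.1% ± 10.3 at E9.5 to E12.5, 11.8% ± 5.25 at E13.5 to E18 and 7.41% ± 4.52 after birth (rho = -0.85, r = -0.80, permutation p = 2e-05 and 4e-05, adjusted p = 0.00012 for rho). Of the non-myocytes of CD1 atria they made up 13.3% ± 7.34, 33.9% ± 5.61 and 34.0% ± 5.43 in these periods (rho = 0.49, permutation p = 0.04, adjusted p = 0.068; r = 0.61, p = 0.0073). On this denominator the mean over stages was higher in the atria, by 15.2 percentage points in CD1 and 16.1 in C57BL/6 (permutation adjusted p = 0.019 and 0.0045), while the ventricles were higher from E9.5 to E12.5 in CD1 (40.6% against 13.6% at E9.5) and from E11.5 to E13.5 in C57BL/6.

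In C57BL/6 the share of all cells had no such relation with stage (rho = 0.12, r = -0.017, permutation p = 0.65 and 0.95, n = 17 stages). The mean over zones was 11.4% ± 2.26 (SD, 3 stages) at E10.5 to E12.5, 15.3% ± 1.86 (6 stages) at E13.5 to E18.5 and 12.6% ± 2.69 (8 stages) after birth. The lowest stage was P5 with 7.95% and the highest E13.5 with 18.1%. With cells pooled over zones, so that large samples weigh more, rho was 0.55 (permutation adjusted p = 0.043). The endocardial share of the non-myocytes of C57BL/6 ventricles fell with stage (rho = -0.68, r = -0.66, permutation p = 0.0035 and 0.0038, adjusted p = 0.0071 for rho), from 19.0% ± 10.7 to 7.44% ± 4.44, while that of the atria had rho = 0.13 and r = 0.20 (permutation p = 0.64 and 0.44).

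Set side by side over the 16 stages that both strains share, with CD1 E18 beside C57BL/6 E18.5, the endocardial share of all cells was 10.9% ± 4.503 (SD) in CD1 and 13.3% ± 2.77 in C57BL/6, and CD1 was higher at 5 of 16 stages. As a share of non-myocytes the values were 21.04% ± 4.30 and 21.3% ± 6.88, and CD1 was again higher at 5 of 16 stages. Strain, experiment and sequencing run cannot be told apart in these data, so no test was made. Both strains had fewer cells here than the study reports after filtering, with the larger shortfall in CD1. A sub-cluster of low UMI count, described below, held 8.42% of the CD1 and 18.2% of the C57BL/6 endocardial ECs.

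Among endothelial cells, endocardial ECs were nearly all of the cells in the first stages and in the atria, and a minority in later ventricles. They were 67.7% of the CD1 endothelial cells (66.1 to 69.2%, exact interval) and 72.6% of those of C57BL/6 (71.4 to 73.8%). The atrial share of endothelial cells was 90.4% ± 5.66 (SD) and the ventricular share 36.4% ± 20.7 over the 15 CD1 stages with both, a difference of 54.0 percentage points ± 17.8. In C57BL/6 these were 87.5% ± 5.93 and 32.0% ± 19.9, a difference of 55.5 percentage points ± 19.3 over 13 stages. The atrial share was higher at all of these 15 and 13 stages (sign-flip permutation p = 6.1e-05 and 0.00024, the smallest these designs allow; adjusted p = 0.00037 and 0.00098). The smallest differences were 9.27 percentage points at E11.5 in CD1 and 6.91 at E10.5 in C57BL/6, where the ventricular share was also high. Within experiments the difference was 46.7 (CD1 E9.5_P3, 10 stages), 65.3 (E18_P1, 2 stages), 69.8 (P2_P9, 4 stages), 54.2 (C57BL/6 E10.5_P4, 9 stages) and 58.4 (P5_P9, 4 stages), as the plot of shares of endothelial cells shows.

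**Figure D2:**
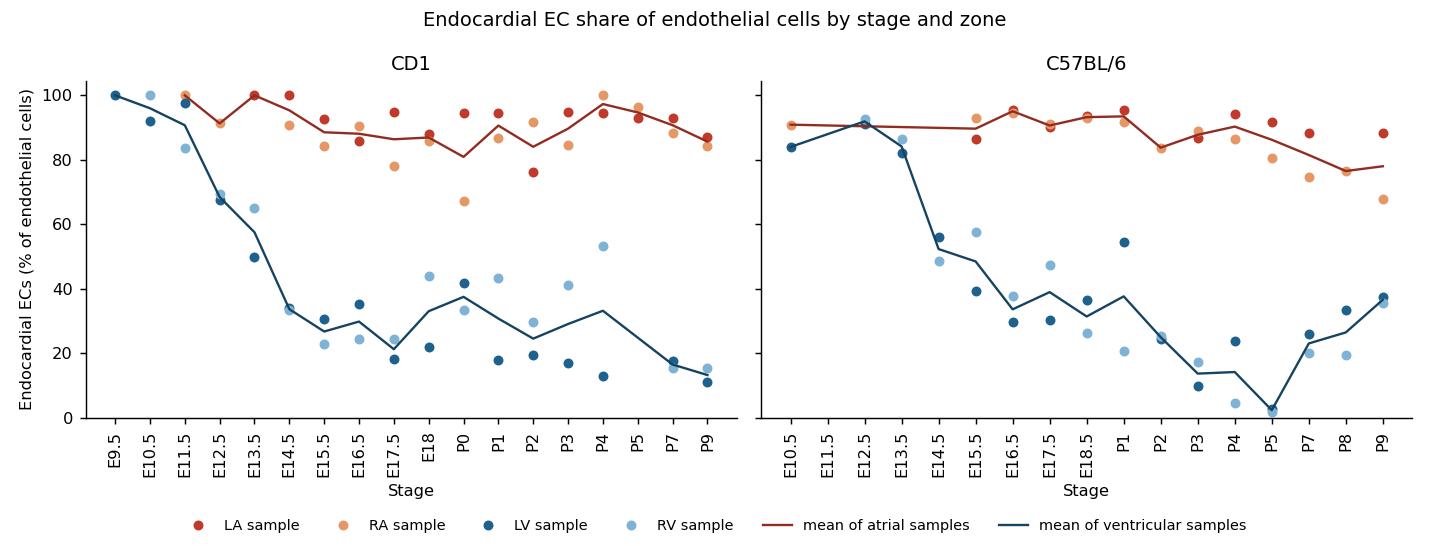
Endocardial ECs as a percentage of endothelial cells, that is of endocardial and vascular ECs together (vertical axis), at each stage (horizontal axis). Each point is 1 sample with at least 10 endothelial cells, and lines join the means of atrial and of ventricular samples across any stage without one. The CD1 ventricular mean goes from 100% at E9.5 to 13.2% at P9, while the atrial mean stays between 80.9% and 100%.

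The endocardial share of ventricular ECs fell steeply before birth. In CD1 it was 100% at E9.5, 96.0% at E10.5, 90.7% at E11.5, 68.4% at E12.5, 57.5% at E13.5, 33.7% at E14.5 and 26.7% at E15.5. It then lay between 13.2% and 37.5% up to P9, without P5, where fewer than 10 endothelial cells were found in each ventricle. Over the 17 stages rho was -0.80 and r was -0.84 (permutation p = 0.00044 and 2e-05, adjusted p = 0.0013 for rho). In C57BL/6 ventricles it was 84% at E10.5, 91.9% at E12.5, 84.2% at E13.5, 52.3% at E14.5 and 31.4% at E18.5, and it reached its lowest value, 2.35%, at P5 and 36.6% at P9 (rho = -0.80, r = -0.81, permutation p = 0.00038 and 0.0001, adjusted p = 0.0013 for rho, n = 16 stages). Coronary vessels form in this period, and the remaining cells of this denominator are by construction the vascular ECs.

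The endocardial share of atrial ECs stayed high. It was between 80.9% at P0 and 100% at E11.5 and E13.5 in CD1 (rho = -0.34, r = -0.34, permutation p = 0.19 and 0.20, n = 16 stages). In C57BL/6 atria it was 92.2% ± 2.46 (SD, 4 stages) at E15.5 to E18.5 and 84.7% ± 5.89 (8 stages) after birth, and it fell with stage (rho = -0.78, r = -0.80, permutation p = 0.0026 and 0.001, adjusted p = 0.0062 for rho, n = 13 stages). The gap between atria and ventricles widened with stage in CD1 (rho = 0.69, r = 0.74, permutation p = 0.0057 and 0.00036, adjusted p = 0.011 for rho, n = 15 stages). In C57BL/6 the same relation had rho = 0.26 (permutation p = 0.39, n = 13 stages). Neither LA and RA nor LV and RV differed beyond the spread between stages in this share (permutation adjusted p between 0.19 and 0.66).

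Over all zones, the endocardial share of endothelial cells fell with stage in both strains. For CD1 rho was -0.60 and r was -0.59 (permutation p = 0.0087 and 0.011, adjusted p = 0.012 for rho, n = 18 stages), and for C57BL/6 rho was -0.79 and r was -0.80 (permutation p = 0.00034 and 8e-05, adjusted p = 0.00068 for rho, n = 16 stages). In CD1, r was -0.43 without the first and last stage (permutation p = 0.10), so that relation rests in part on them, and in C57BL/6 it was -0.82 (p = 0.00034). Within experiments rho was -0.58 in CD1 E9.5_P3 (permutation p = 0.04, n = 13) and -0.81 in C57BL/6 E10.5_P4 (p = 0.0023, n = 12). The CD1 mean of P5, 94.7%, comes from its 2 atrial samples alone, and that of E9.5 from the LV alone. Over the 15 CD1 and 13 C57BL/6 stages with both atrial and ventricular samples, rho was -0.64 and -0.77 (permutation adjusted p = 0.017 and 0.0064).

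The 125 CD1 endocardial ECs that the authors marked as possible valve cells came mainly from the first stages (80 from E9.5 to E12.5), with 60 from the LV. They formed sub-clusters 10, with 64 cells, and 11, with 61 cells, of the authors' sub-clustering of endocardial ECs, and were 5.06% of the CD1 endocardial ECs (exact interval 4.23 to 6.00%). They were 60.0% of the endocardial ECs at E9.5 (42 of 70 cells; 47.6 to 71.5%), 34.2% at E10.5 (13 of 38 cells), and between 0 and 13.48% at every later stage. At E17.5, 0 of 153 cells carried the mark, and from P0 to P9 1.04% did (13 of 1256 cells). No C57BL/6 endocardial EC carried this mark, which was given in the CD1 annotation.

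**Figure D3:**
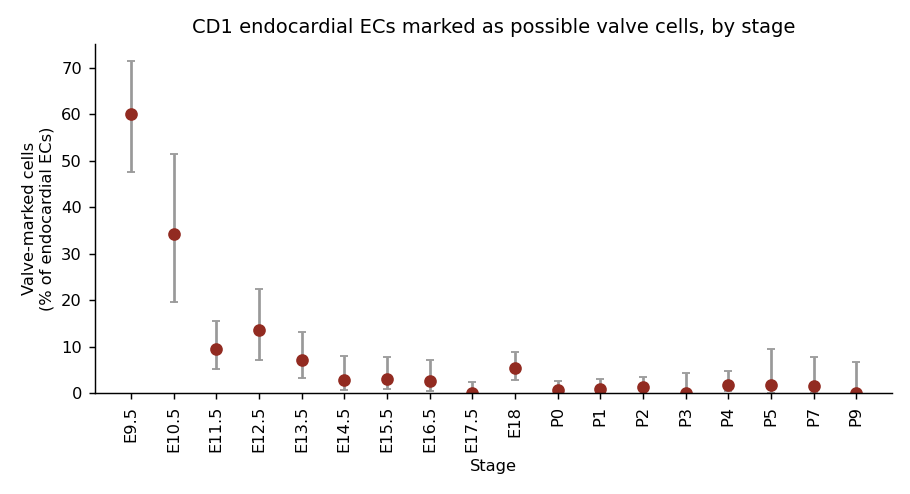
CD1 endocardial ECs marked by the authors as possible valve cells, as a percentage of the endocardial ECs of a stage (vertical axis), by stage (horizontal axis). Points are shares over all zones and bars are exact 95% binomial intervals, which cover counting error only. The share is 60.0% at E9.5 and 34.2% at E10.5 and at most 13.48% from E11.5 on.

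By zone, the mark was carried by 15.4% of the LV endocardial ECs (11.95 to 19.4%), 9.63% of those of the RV (6.39 to 13.8%), 3.16% of those of the RA (2.15 to 4.49%) and 1.05% of those of the LA (0.479 to 1.97%). From E9.5 to E12.5 the zones were closer to each other, at 27.1% in the LV, 24.5% in the RA, 23.5% in the LA and 15.6% in the RV, with 4 marked cells of 17 in the LA. Later the RV share was above that of the LV, 7.59% against 5.84% from E13.5 to E18 and 6.25% (3 of 48 cells) against 0 of 61 cells from P0 to P9, with overlapping intervals. Sub-cluster 10 was the earlier of the pair, with 59.4% of its cells from E9.5 and 48.4% from the E9.5 LV alone. It also had the highest median UMI count of the CD1 sub-clusters, 19826 against 9880 over all CD1 endocardial ECs. The median over all endocardial ECs of the E9.5 LV sample was similar, 20078, so this count cannot be told apart from stage. Sub-cluster 11 spread over stages, with 39.3% of its cells from E9.5 to E12.5, 42.6% from E13.5 to E18 and 18.03% from P0 to P9.

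The endocardial ECs of each strain fell into sub-clusters that the authors had made from the expression of these cells, 12 in CD1 and 10 in C57BL/6 among the cells kept. Stage and zone were not used to make them, and numbers are not matched between strains. In each strain, one sub-cluster consisted mostly of LA cells and was postnatal. CD1 sub-cluster 1 held 408 cells, of which 73.8% were LA cells, 16.2% RA cells and 91.9% cells of P0 to P9. C57BL/6 sub-cluster 5 held 355 cells, of which 78.9% were LA cells, 11.3% RA cells and 87.6% postnatal. Each strain also had a postnatal sub-cluster with more RA than LA cells, CD1 sub-cluster 0 with 525 cells (58.9% RA, 33.3% LA, 83.4% postnatal) and C57BL/6 sub-cluster 1 with 616 cells (67.2% RA, 21.3% LA, 91.2% postnatal). Over all endocardial ECs, RA and LA cells were 38.4% and 34.9% in CD1 and 35.0% and 22.3% in C57BL/6. The P8 RA sample gave 22.4% of C57BL/6 sub-cluster 1. Of the postnatal atrial cells of that sub-cluster 22.5% were LA cells, where their stages alone give 35.5%.

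**Figure D4:**
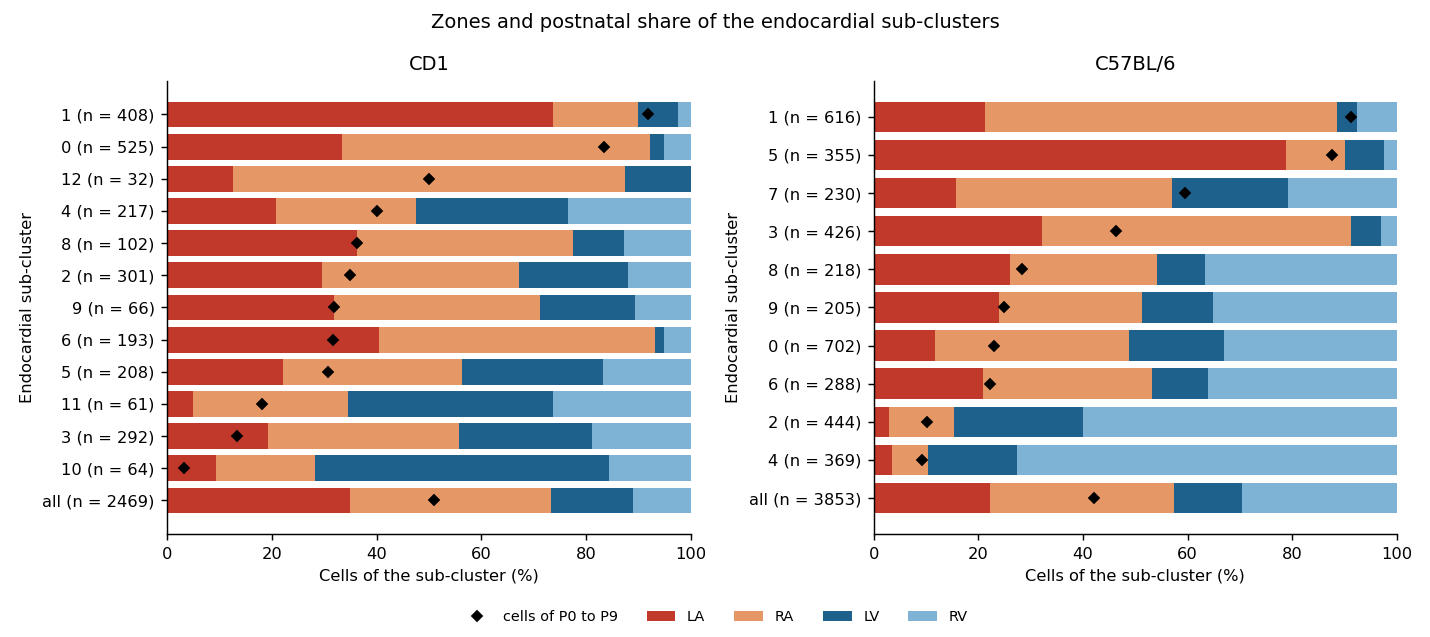
Zones of the cells of each endocardial sub-cluster as stacked percentages of its cells (horizontal axis), by sub-cluster number and cell count (vertical axis), with all endocardial ECs at the bottom. Black diamonds give the percentage of a sub-cluster's cells from P0 to P9. The 2 sub-clusters with the highest postnatal share in each strain are 1 and 0 in CD1 and 1 and 5 in C57BL/6.

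The lean to one atrium had the same direction at each of these postnatal stages, though its size varied. Among postnatal stages with at least 10 endocardial ECs in each atrium, CD1 sub-cluster 1 took 56.3% ± 25.9 (SD, n = 8 stages) of the LA cells (9.77% to 78.0%) and between 2.63% and 23.7% of the RA cells, and the LA value was higher at 8 of 8 stages. C57BL/6 sub-cluster 5 took 55.2% ± 19.1 (n = 6 stages) of the LA cells and 2.74% ± 4.10 of the RA cells, and was higher in the LA at 6 of 6 stages. CD1 sub-cluster 0 took 18.2% ± 18.4 of LA cells and 50.6% ± 9.23 of RA cells, and C57BL/6 sub-cluster 1 took 9.68% ± 12.6 and 47.9% ± 19.2, with the RA value the higher at every one of these stages. At P0 the values of CD1 sub-cluster 0 were nearly equal, 59.8% of LA and 60.5% of RA cells. Before birth, CD1 sub-cluster 1 took 4.85% ± 5.49 of LA and 1.89% ± 3.33 of RA cells over 5 stages, and C57BL/6 sub-cluster 5 took 6.12% ± 2.77 and 3.56% ± 2.14 over 4 stages. At these stages CD1 sub-cluster 0 took 11.2% ± 9.69 of LA and 8.90% ± 9.46 of RA cells, and C57BL/6 sub-cluster 1 took 5.31% ± 7.68 and 2.76% ± 1.14. These are descriptions, since the sub-clusters were made from the same cells.

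Other sub-clusters were led by atrial cells of both sides or by ventricular cells. CD1 sub-cluster 6 (193 cells, 40.4% LA and 52.8% RA) and C57BL/6 sub-cluster 3 (426 cells, 32.2% LA and 59.2% RA) held atrial cells of both sides, with 66.3% and 53.3% of their cells from E13.5 to E18.5. After birth C57BL/6 sub-cluster 3 took 4.64% ± 8.20 (SD) of LA and 13.3% ± 7.44 of RA cells, with the LA value higher at 1 of 6 stages. C57BL/6 sub-cluster 7 took 2.66% ± 2.90 and 8.73% ± 3.18, with the LA value higher at 0 of 6. A lean to the RA was thus not limited to CD1 sub-cluster 0 and C57BL/6 sub-cluster 1. CD1 sub-cluster 3 was embryonic, with 40.8% of its 292 cells from E9.5 to E12.5 and 45.9% from E13.5 to E18. C57BL/6 sub-clusters 2 and 4 were ventricular, with 59.9% and 72.6% RV cells, but 44.6% and 58.3% of their cells came from the E13.5 RV sample. Without that sample their ventricular shares were 72.4% (exact interval 66.3 to 77.8%) and 75.3% (67.7 to 81.9%), against 28.5% of all C57BL/6 endocardial ECs.

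One sub-cluster per strain stood apart in quality measures. CD1 sub-cluster 5 (208 cells) had a median of 3410 UMIs, 1546 detected genes, 16.8% mitochondrial UMIs and 6.98% ribosomal UMIs, against 9880, 3247, 6.70% and 15.97% over all CD1 endocardial ECs. C57BL/6 sub-cluster 0 (702 cells) had 4714 UMIs, 1982 detected genes and 9.56% mitochondrial UMIs, against 8296, 2864 and 6.05%. It was the largest C57BL/6 sub-cluster and held 25.5% of the endocardial ECs of E13.5 to E18.5 and 9.91% of the postnatal ones. Its CD1 counterpart by these measures held 14.0% and 5.10%, and 14.4% of the LV endocardial ECs against 5.34% of those of the LA. Some results that touch these cells are given with and without them below. The differences in UMI count between cell types and between zones are given only with them.

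Compared with vascular ECs of the same samples, endocardial ECs had fewer UMIs and a higher mitochondrial percentage. The mitochondrial percentage is the part of a cell's UMIs that come from mitochondrial transcripts. In CD1 its median was 8.56% ± 3.09 (SD) in endocardial and 4.72% ± 0.777 in vascular ECs over the 10 stages with samples of at least 10 cells of both types. The difference of 3.83 percentage points ± 2.51 was positive at 10 of 10 stages (sign-flip permutation p = 0.002, adjusted p = 0.0059 over 6 comparisons). In C57BL/6 the values were 6.19% ± 1.80 and 3.74% ± 0.914, a difference of 2.45 percentage points ± 1.26 that was positive at 14 of 14 stages (permutation p = 0.00012, adjusted p = 0.00073). Both p-values are the smallest these numbers of stages allow.

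**Figure D5:**
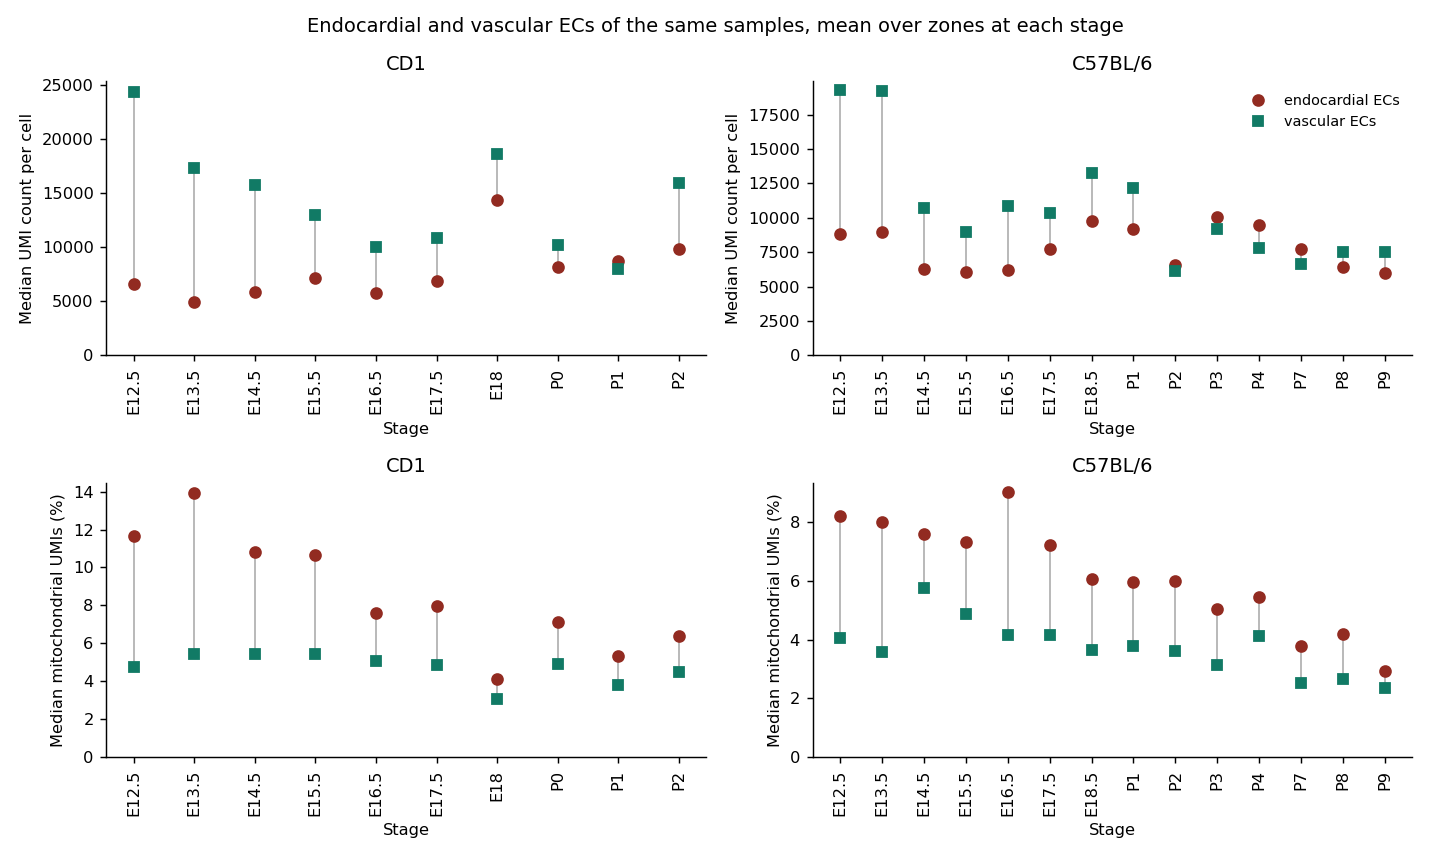
Median UMI count per cell (upper row) and median mitochondrial UMIs in percent (lower row) of endocardial ECs (circles) and vascular ECs (squares) at each stage (horizontal axis). Each point is the mean over the zones whose samples held at least 10 cells of both types, and grey lines join the values of a stage. The endocardial mitochondrial percentage lies above the vascular one at 10 of 10 CD1 stages and 14 of 14 C57BL/6 stages.

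The largest gaps in mitochondrial percentage were at stages before birth. In CD1 it was 6.90 percentage points at E12.5, 8.48 at E13.5, 5.41 at E14.5 and 5.20 at E15.5, and between 1.07 and 3.07 from E16.5 on. In C57BL/6 it was 4.16 at E12.5, 4.41 at E13.5 and 4.84 at E16.5, and 0.557 at P9, but not every embryonic gap exceeded the postnatal ones. At E14.5 the endocardial and vascular medians were 8.34% and 5.17% in the LV and 6.86% and 6.34% in the RV. At P2 they were 5.81% and 3.52% in the LV and 6.17% and 3.68% in the RV, a larger mean gap. Within experiments the mean gap was 4.55 in CD1 E9.5_P3 (8 stages, exact permutation p = 0.0078), 0.572 in E18_P1 (2 stages), 1.34 in P2_P9 (1 stage), 2.82 in C57BL/6 E10.5_P4 (11 stages, permutation p = 0.00098) and 1.11 in P5_P9 (3 stages). Without the low-UMI sub-clusters the mean gap was 2.99 percentage points in CD1 and 2.05 in C57BL/6, with the same adjusted p. Among cells of 8000 to 16000 UMIs it was 1.63 over 3 CD1 stages and 1.59 over 8 C57BL/6 stages (permutation adjusted p = 0.0094 for C57BL/6). The part of depth in the gap was not tested otherwise. Over all cells, endocardial ECs had the third highest median mitochondrial percentage of the 9 cell groups of each strain, after atrial and ventricular cardiomyocytes.

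The UMI count was lower by 6584 ± 5391 per cell (SD) in CD1 endocardial than vascular ECs, with medians of 7812 ± 2725 and 14395 ± 4977, and lower at 9 of 10 stages (sign-flip permutation p = 0.0039, adjusted p = 0.0078). In C57BL/6 it was lower by 2885 ± 3753, with medians of 7806 ± 1545 and 10691 ± 4167, and lower at 10 of 14 stages (permutation p = 0.0073, adjusted p = 0.0088). At E12.5 the CD1 medians were 6605 and 24376 UMIs and the C57BL/6 medians 8854 and 19284. At P1 the CD1 order was the other way, with 8676 and 7967, and in C57BL/6 it was so at P2, P3, P4 and P7. Within experiments the difference in UMIs was -7215 in CD1 E9.5_P3 (8 stages), -3522 in C57BL/6 E10.5_P4 (11 stages) and -546 in P5_P9 (3 stages). Detected genes went the same way, with differences of -956 ± 864 in CD1 and -354 ± 607 in C57BL/6 (adjusted p = 0.0088 and 0.046 by the same permutation test). Among cells of 8000 to 16000 UMIs the difference in detected genes was -97.7 over 3 CD1 stages and 28.6 over 8 C57BL/6 stages. The C57BL/6 call on detected genes was lost without any one of 10 stages, for example E12.5 (-265 genes, permutation adjusted p = 0.091).

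Within the endocardial ECs, the mitochondrial percentage fell with stage in C57BL/6. The stage means were 10.8% at E10.5, 8.22% at E12.5, 6.35% at E18.5, 5.96% at P1 and 2.75% at P9 (rho = -0.97, r = -0.96, permutation p = 2e-05 for both, the smallest that 100000 resamples can give; adjusted p = 0.00012, n = 16 stages). The zones behind these means change, with ventricles alone at E12.5 and atria alone at P9. The fall held within E10.5_P4 (rho = -0.95, r = -0.92, n = 12), in atrial samples (rho = -0.97) and in ventricular samples (rho = -0.92, n = 13 stages each). In CD1 the stage means went from 4.93% at E9.5 to 11.6% at E13.5 and to 4.77% at P9, with rho = -0.59 and r = -0.56 (permutation p = 0.012 and 0.017, adjusted p = 0.035 and 0.052, n = 18 stages). The CD1 means rest on ventricles alone at E9.5 and E10.5 and on atria alone from P3 on. In CD1 atrial samples rho was -0.69 (permutation p = 0.0036, n = 16 stages), and in ventricular samples it was -0.27 (permutation p = 0.36, n = 13 stages). Within CD1 E9.5_P3 the fall did not hold (rho = -0.12, r = -0.13, permutation p = 0.70 and 0.68, n = 13), and leaving out any one of 11 stages took the adjusted p above 0.05. The medians of CD1 E9.5_P3, E18_P1 and P2_P9 endocardial ECs were 8.03%, 4.15% and 5.26%, so the experiments differed as well. Those of C57BL/6 E10.5_P4 and P5_P9 endocardial ECs were 6.87% and 3.30%. Vascular ECs had 3.84% and 2.51% in these C57BL/6 experiments, so the later experiment was lower in both types. Whether the vascular percentage moved with stage was not tested.

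The UMI count and the number of detected genes of endocardial ECs had no relation with stage that passed the test in either strain (rho between 0.024 and 0.24, permutation p from 0.38 to 0.92). Within CD1 E9.5_P3 the UMI count had r = -0.67 and rho = -0.38 with stage (permutation p = 0.0059 and 0.19, n = 13 stages), E9.5 having the highest value. Stage medians of the UMI count lay between 6117 and 20078 in CD1 and between 6312 and 9648 in C57BL/6. They rest on ventricles alone at CD1 E9.5 and E10.5 and at C57BL/6 E12.5 to E14.5. Only atria entered at CD1 P3 to P9 and at C57BL/6 P5, P7 and P9. Atrial endocardial ECs had more UMIs than ventricular ones in CD1, 9807 ± 2509 against 7605 ± 2741 (SD), at 10 of 11 stages (sign-flip permutation p = 0.0029, adjusted p = 0.012), and by 2112 UMIs within E9.5_P3 (8 stages, exact permutation p = 0.016). They also had more detected genes, 3192 ± 424 against 2689 ± 613 (permutation adjusted p = 0.012), a difference of 503 that was 290 without the low-UMI sub-cluster (adjusted p = 0.22). In C57BL/6 these were 8628 ± 1157 against 7722 ± 2327 UMIs at 10 stages, higher in the atria at 7 (adjusted p = 0.45), and without P3 the difference was 1637 UMIs (permutation adjusted p = 0.047). The mitochondrial percentage was lower in C57BL/6 atrial than ventricular endocardial ECs (lower at 7 of 10 stages, permutation adjusted p = 0.047), a difference of -1.14 percentage points ± 1.80 that was -0.37 without the low-UMI sub-cluster (permutation adjusted p = 0.45), and the call was lost without any one of 7 of the 10 stages. In CD1 it differed by -0.497 ± 2.88 (permutation adjusted p = 0.62).

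Wells of one experiment were loaded from the same pool of cells, those of CD1 E9.5_P3 with different target numbers of cells. The 5 wells of CD1 E9.5_P3 gave endocardial shares of all cells from 6.24% (exact interval 5.24 to 7.37%) to 10.2% (9.08 to 11.4%), so the lowest and highest differed beyond counting error. Their shares of endothelial cells were from 65.3% to 71.4%. The 4 wells of C57BL/6 E10.5_P4 gave 12.9% to 15.2% of all cells and 73.2% to 76.9% of endothelial cells. Repeats of a stage in another experiment are separate pools of hearts, so they differ in animals and dissection as well. The repeats of P2 also differ in sequencing platform. CD1 P1 was profiled in 2 experiments, with endocardial shares of all cells in the LA of 45.4% (37.0 to 54.0%, exact interval) in E18_P1 and 20.8% (16.2 to 26.1%) in E9.5_P3, and in the RA of 33.8% (26.5 to 41.6%) and 15.4% (11.4 to 20.2%). The endocardial ECs of the P2 LA had a median of 7387 UMIs in E9.5_P3 (HiSeq X) and 17104 in P2_P9 (NovaSeq), and the cause of this gap was not tested. CD1 P2 gave 24.2% (17.8 to 31.6%) in E9.5_P3 and 12.1% (8.58 to 16.4%) in P2_P9 in the LA, and 20.2% and 21.3% in the RA. As a share of endothelial cells the values at P1 in E18_P1 and E9.5_P3 were 98.5% and 90.5% in the LA and 90% and 83.0% in the RA, and at P2 in E9.5_P3 and P2_P9 68.4% and 87.5% in the LA and 89.3% and 93.1% in the RA.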

How the data were processed

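MULTI-seq single-cell libraries (10x 3′) were aligned by the authors with Cell Ranger 3.1.0 to GRCm38.p4 and assigned to samples by barcode. The authors removed cells of low UMI or gene count or high mitochondrial percentage, barcode multiplets and groups judged to be doublets, and every cell in the tables had at least 2000 UMIs. The authors deposited per-cell tables, from which the UMI count, the count of detected genes, the percent of mitochondrial and ribosomal UMIs, a doublet score and labels were used, and 90 other columns were not used. Cell types and sub-clusters are the authors' own, and 79 C57BL/6 cells marked for exclusion, none of them endocardial, were left out. The study reports excluding clusters of possible contaminants in several cell types, endocardial and vascular ECs among them. No CD1 cell still carried a mark for exclusion. The members and measures were chosen with earlier results of these data known.

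Shares and medians were computed per sample of at least 10 cells (of the denominator, or of endocardial ECs) and averaged over zones to 1 value per stage, with strains kept apart. Relations with stage were tested by two-sided permutation of stages and differences by two-sided sign-flip permutation over stages, exact under 10 values and otherwise with up to 100000 resamples, in Python 3.11.15 with scipy 1.17.1, and adjusted by Benjamini-Hochberg within families. Intervals are exact binomial at 95%. The stage test and the atrial minus ventricular test were tried on simulated CD1 shares of all cells. That simulation had no experiment effect and did not cover the other measures. Alternatives covered denominators, filters, doublet scores, minimums, experiments and stages left out. Depth per cell is given as UMI count; detected genes could not be thinned to equal depth. Mutant hearts were not analysed here.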

Additional observations from a re-analysis of the deposited data

Results flagged for a closer look

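Of 43 sets of 4 to 10 stages of one side and period, 5 held a stage whose gap to its nearest neighbour was large for the range of the set, where chance gives about 1 in 20. Of these, 4 are CD1 E18, the one embryonic stage of experiment E18_P1: its endocardial ECs had a median of 15362 UMIs in the atria (next highest 8875) and 13512 in the ventricles (next 7350), and 3979 detected genes in the atria (next 3082) and 3852 in the ventricles (next 2582), so stage and experiment cannot be told apart there. The other is the CD1 ventricular endocardial share of endothelial cells at E13.5, 57.5%, where the next highest of E14.5 to E18 was 33.7%.

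The relation with stage differed between atrial and ventricular samples. The atrial minus ventricular difference in endocardial share rose with stage for the share of all cells in CD1 (rho = 0.79, permutation adjusted p = 0.0011) and in C57BL/6 (rho = 0.57, adjusted p = 0.028), for the share of non-myocytes in CD1 (rho = 0.72, permutation adjusted p = 0.0055) and for the share of endothelial cells in CD1 (rho = 0.69, permutation adjusted p = 0.011). The remaining 2 of the 6 relations, both in C57BL/6, had an adjusted p of 0.06 (share of non-myocytes, rho = 0.49) and 0.39 (share of endothelial cells, rho = 0.26) in the same permutation test. All 6 were chosen after the shares had been seen.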

How the results depend on the processing

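Of 383 values of 34 results under other settings, 320 kept their direction and their side of the threshold, and 4 of the 18 called results changed under none of them. Of these values 45 were identical to the reported one, mostly because keeping excluded cells or using the second C57BL/6 annotation column changed no endocardial cell. Since no CD1 cell was marked for exclusion, keeping excluded cells could not change a CD1 value. The settings by side, the stages with both sides, the omission of the lowest-UMI sub-cluster and of valve-marked cells, and the UMI window for the mitochondrial percentage were chosen after seeing the data. All p here are permutation p adjusted over the family, and the cause of each change was not tested. With other denominators, the relation of the share of all cells with stage was rho = -0.36 in CD1 and -0.28 in C57BL/6 without cardiomyocytes and -0.25 in C57BL/6 without blood, and without cardiomyocytes LA minus RA was 1.81 in CD1 and LV minus RV 2.82 in CD1 and 0.241 in C57BL/6. With cells pooled over zones, rho with stage was 0.55 for the C57BL/6 share of all cells and -0.35 for the CD1 share of endothelial cells. For that CD1 share it was -0.36 with a minimum of 20 cells, -0.41 with a minimum of 50 and -0.34 in the atria alone, and for the C57BL/6 share -0.33 with a minimum of 50. The CD1 share of all cells had 0.086 in the ventricles alone, and the C57BL/6 one -0.45. A minimum of 50 cells gave LA minus RA of 0.173 in CD1. The C57BL/6 relation of UMI count and detected genes with stage was -0.13 and -0.0059 with at least 4000 UMIs and at most 20% mitochondrial, -0.19 and -0.10 with a minimum of 20 cells (CD1 UMI count -0.044), -0.21 and -0.12 in the atria alone, and -0.15 and -0.11 without the lowest-UMI sub-cluster (CD1 UMI count -0.022), and that of detected genes -0.29 within the UMI window. In the CD1 ventricles alone UMI count, detected genes and mitochondrial percentage had -0.26, -0.25 and -0.27.

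The C57BL/6 atrial minus ventricular mitochondrial percentage was -0.148 with the stricter filter, -0.548 without the top doublet scores, -0.737 by means, 0.109 in the UMI window and -0.37 without the lowest-UMI sub-cluster, which gave 0.0887 in CD1. The C57BL/6 endocardial minus vascular difference in detected genes was -343 without the top doublet scores, 28.6 in the UMI window and -196 without the lowest-UMI sub-cluster. The CD1 atrial minus ventricular difference in detected genes was -0.688 in the UMI window and 290 without that sub-cluster, and CD1 LA minus RA was then 0.0808. Without C57BL/6 E10.5_P4, 5 relations with stage could not be fitted, since 4 stages were left. LA minus RA of the share of endothelial cells was then 15.2, and endocardial minus vascular was 35.2 detected genes and 1.11% mitochondrial. Without P5_P9, rho of the C57BL/6 share of all cells was -0.022, LA minus RA 0.992, atrial minus ventricular 6.06 (p = 0.051) and the atrial minus ventricular mitochondrial percentage -1.10. Without CD1 E9.5_P3, 7 or fewer stages were left: rho was -0.46 for the share of all cells, -0.39 for that of endothelial cells, -0.36 for UMI count and for detected genes and 0.36 for mitochondrial percentage. Atrial minus ventricular was then 22.7 for the share of all cells (exact permutation adjusted p = 0.062), 68.3 for that of endothelial cells (p = 0.094), 548 UMIs and -164 genes, and endocardial minus vascular 13.4 genes and 0.828% mitochondrial. Without CD1 P2_P9, rho was -0.31, -0.29 and -0.26 for UMI count, detected genes and mitochondrial percentage, and LA minus RA was 3.90.

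Leaving out each stage in turn ended or turned a value in these results, which ranged from -0.012 to 0.24 (rho of the C57BL/6 share of all cells), -0.034 to 0.22 and -0.0025 to 0.25 (rho of CD1 UMI count and detected genes), -0.74 to -0.53 (CD1 mitochondrial percentage), -1.32 to 0.867 (CD1 LA minus RA), -0.820 to 0.159 and -1.32 to -0.629 (atrial minus ventricular mitochondrial percentage, CD1 and C57BL/6), 582 to 1637 UMIs and 98.1 to 323 genes (C57BL/6 atrial minus ventricular) and -414 to -265 genes (C57BL/6 endocardial minus vascular). Samples under 50 cells limit shares of single zones, and medians of ventricular endocardial ECs after birth rest on few samples.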
